A study of Homo sapiens with 9 samples.

Results

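The genes described here are the secreted and membrane-bound metalloproteases that cut extracellular matrix and cell-surface proteins, their relatives and their inhibitors. They were taken by symbol: alpha-2-macroglobulin (A2M) and every protein-coding gene named MMP, ADAM, ADAMTS, ADAMTSL or TIMP followed by its number. The deposited table held 49 such genes of 22290. A further 22 genes that the symbols cover had no row in it, among them TIMP1, TIMP3, TIMP4, MMP1, MMP7 and ADAMTS5, and are not analysed here. Of the 49, 42 were counted as proteases (4 of them ADAMs without the zinc site), 5 as ADAMTS-like proteins and 2, A2M and TIMP2, as inhibitors.

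The study sequenced RNA from human cells with the tissue label Brain, IMR-32 by the study's account, an established neuroblastoma line, in 3 groups of 3 libraries. The groups were parental cells labelled WT (PAR), cells labelled TRAP1 knockdown (KD) and cells labelled TRAP1 overexpression (OE), TRAP1 being the mitochondrial HSP90 chaperone. All were grown in DMEM with serum. How the altered cells were made, and whether each is 1 clone or a pool, is not given in the labels. Nothing in the labels tells whether the 3 libraries of a group came from separate cultures, so the p-values measure the spread between these samples. The values are regularized logarithms (rlog), normalised read counts on a log2 scale in which differences of weakly expressed genes are drawn towards 0. A difference of rlog values therefore understates low genes. The depth of sequencing is unknown from such values. The summed level, 2 to the power of rlog over all genes, lay between 34928732 and 35211774 in the 9 libraries. The root mean square difference was 0.0582 to 0.063 between libraries of a group and 0.1369 to 0.2555 between libraries of different groups.

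The labels were checked against the RNA. TRAP1 (ENSG00000126602, chr16:3651639-3717553, minus strand) read 10.67, 10.66 and 10.65 in the parental libraries, 10.79, 10.79 and 10.83 in those labelled KD and 10.67, 10.63 and 10.74 in those labelled OE. All 3 libraries labelled KD lay above the parental ones, and those labelled OE overlapped them. In rlog values the difference was +0.14 for KD (SE 0.0252, limma adjusted p = 1.8e-05) and +0.018 for OE (SE 0.0252, limma adjusted p = 0.643, 95% interval −0.033 to 0.069). The OE difference was −0.0118 without OE replicate 3. With the median of TRAP1's neighbours in the same fixed 20-Mb block of the chromosome removed, it was 0.0606 (limma adjusted p = 0.0492) and was called. TRAP1 RNA thus goes against the KD label, a rise under the OE label was called only after that removal among the alternatives tried, and the groups are called libraries labelled KD and OE throughout. Of TRAP1's exonic bases, 28.5% are shared with DNASE1 and another gene, and reads from overlapping genes cannot be told apart, as the strand of counting is not given.

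The identity of the cells was checked in the same way. Of 15 markers of adrenergic neuroblastoma, 10 had a row, and 5 of them reached a mean rlog of 5. The defining transcription factors PHOX2A and MYCN and the enzyme TH had a mean rlog under 3, and the data go against a neuroblastoma identity for those 3 genes. Other transcription factors of the list were well expressed, with mean rlog values of 9.29 for ISL1, the most abundant marker, 9.20 for GATA2, 7.27 for GATA3 and 6.34 for HAND2, so the list is mixed. The log2 summed level of the list was 10.67, 10.64 and 10.65 in the parental libraries, 10.53, 10.51 and 10.55 in those labelled KD and 10.55, 10.63 and 10.59 in those labelled OE.

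Markers of other cell types moved between the groups too, and within a list not always the same way. For 3 of 5 Schwann-lineage markers with a row, led by ERBB3 at 14.13, the log2 summed level was 14.31, 14.30 and 14.28 in the parental libraries, 14.54, 14.56 and 14.53 in those labelled KD and 14.45, 14.46 and 14.47 in those labelled OE. For 4 of 4 endothelial markers, led by PECAM1 at 9.50, it was 9.98, 10.01 and 9.98, then 10.14, 10.13 and 10.10, then 9.51, 9.58 and 9.65 in the same order. Groups did not overlap for the sum of either list. For KD the endothelial sum rose and PECAM1 rose by 0.47, whereas KDR fell by 1.32. For OE the sum fell, and PECAM1 fell by 0.28 and KDR by 0.84. The defining marker CDH5 had a mean rlog of 0.617. For 4 of 6 epithelial markers, led by KRT18 at 12.04, the summed level was 12.50, 12.51 and 12.49, then 12.52, 12.56 and 12.57, then 12.37, 12.36 and 12.38. For OE, KRT18 fell by 0.096 and CLDN4 by 0.57 while KRT8 rose by 0.40, as it did by 0.39 for KD. For 7 of 7 fibroblast markers, led by PDGFRB at 8.53, it was 8.76, 8.79 and 8.85, then 8.78, 8.94 and 8.80, then 8.87, 8.93 and 8.91. The 2 of 4 leukocyte markers with a row, led by CD14 at 3.91, gave 4.51, 4.46 and 4.48, then 4.35, 4.36 and 4.35, then 4.35, 4.41 and 4.43. The part of these markers in the results was not tested. In bulk RNA, fewer cells of a kind and less RNA per cell cannot be told apart.

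As background, matrix metalloproteases (MMPs), ADAMs and ADAMTS proteases share a catalytic zinc and are made as inactive precursors whose prodomain must be removed. TIMPs block the zinc site directly, while A2M traps proteases of all classes in a cage that is cleared by the receptor LRP1. In neural tumours and their stroma these enzymes are known for remodelling matrix, for releasing growth factors and adhesion molecules from the cell surface, and, as MMP14 with TIMP2, for activating MMP2.

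The comparison of each altered group with the parental cells asks which of these genes differ with the TRAP1 label. The test was limma's moderated linear model on all 22290 genes, and a gene was called at an adjusted p under 0.05. Between libraries labelled KD and parental ones, 21 members rose and 15 fell, 36 of 49 or 73.5%, where 53.7% of all genes were called and 26.9% in each direction. Between libraries labelled OE and parental ones, 16 rose and 11 fell, 55.1% of members against 34.8% of all genes (16.9% higher and 18.0% lower). Libraries labelled OE against KD differed in 33 members, 16 higher and 17 lower, 67.3% against 47.3% of all genes (23.5% and 23.8%). The 2 comparisons with parental cells share the parental libraries, so their calls are not independent.

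A mean rlog of at least 5 was reached by 37 of the 49 members and by 14000 of all genes. Among those 37, 19 rose and 11 fell for KD, 81.1% beside 71.7% of all genes at that level (35.6% higher and 36.2% lower). For OE 15 rose and 10 fell, 67.6% beside 50.3% (24.0% and 26.3%). OE against KD, 14 were higher and 15 lower, 78.4% beside 64.1% (31.5% and 32.6%). Whether the members' share differs from that of all genes at the same level was not tested. Nothing particular to the members is read from it. The same holds for the counts by role and class below, beside which these shares of all genes stand. The median absolute difference of rlog values over all members was 0.148 for KD, beside 0.0806 over all genes. It was 0.111 beside 0.0479 for OE, and 0.159 beside 0.065 for OE against KD. At a mean rlog of 5 or more it was 0.187 beside 0.137 for KD, 0.138 beside 0.0749 for OE and 0.226 beside 0.106 for OE against KD. The study took a p under 0.05 with a log2 fold change over 0.5. With an absolute difference of the shrunken rlog values over 0.5 required beside the adjusted p, which is not the same rule, 9 members remained for KD, 4 higher and 5 lower, where 4.98% of all genes and 7.69% of those with a mean rlog of 5 or more passed. For OE 3 remained, A2M and ADAMTS4 higher and MMP9 lower, where 0.897% and 1.41% passed. For OE against KD 8 remained, 5 higher and 3 lower, where 3.56% and 5.45% passed. All 3 libraries of a group lay to the same side of the other group for 36 members for KD and 31 for OE. For OE against KD it was 37. Of all genes, 59.2%, 43.2% and 54.1% did so in the same order. Among the 37 members with a mean rlog of 5 or more, 31, 27 and 32 did so. Of all genes at that level it was 74.6%, 57.4% and 68.2%.

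**Figure D1:**
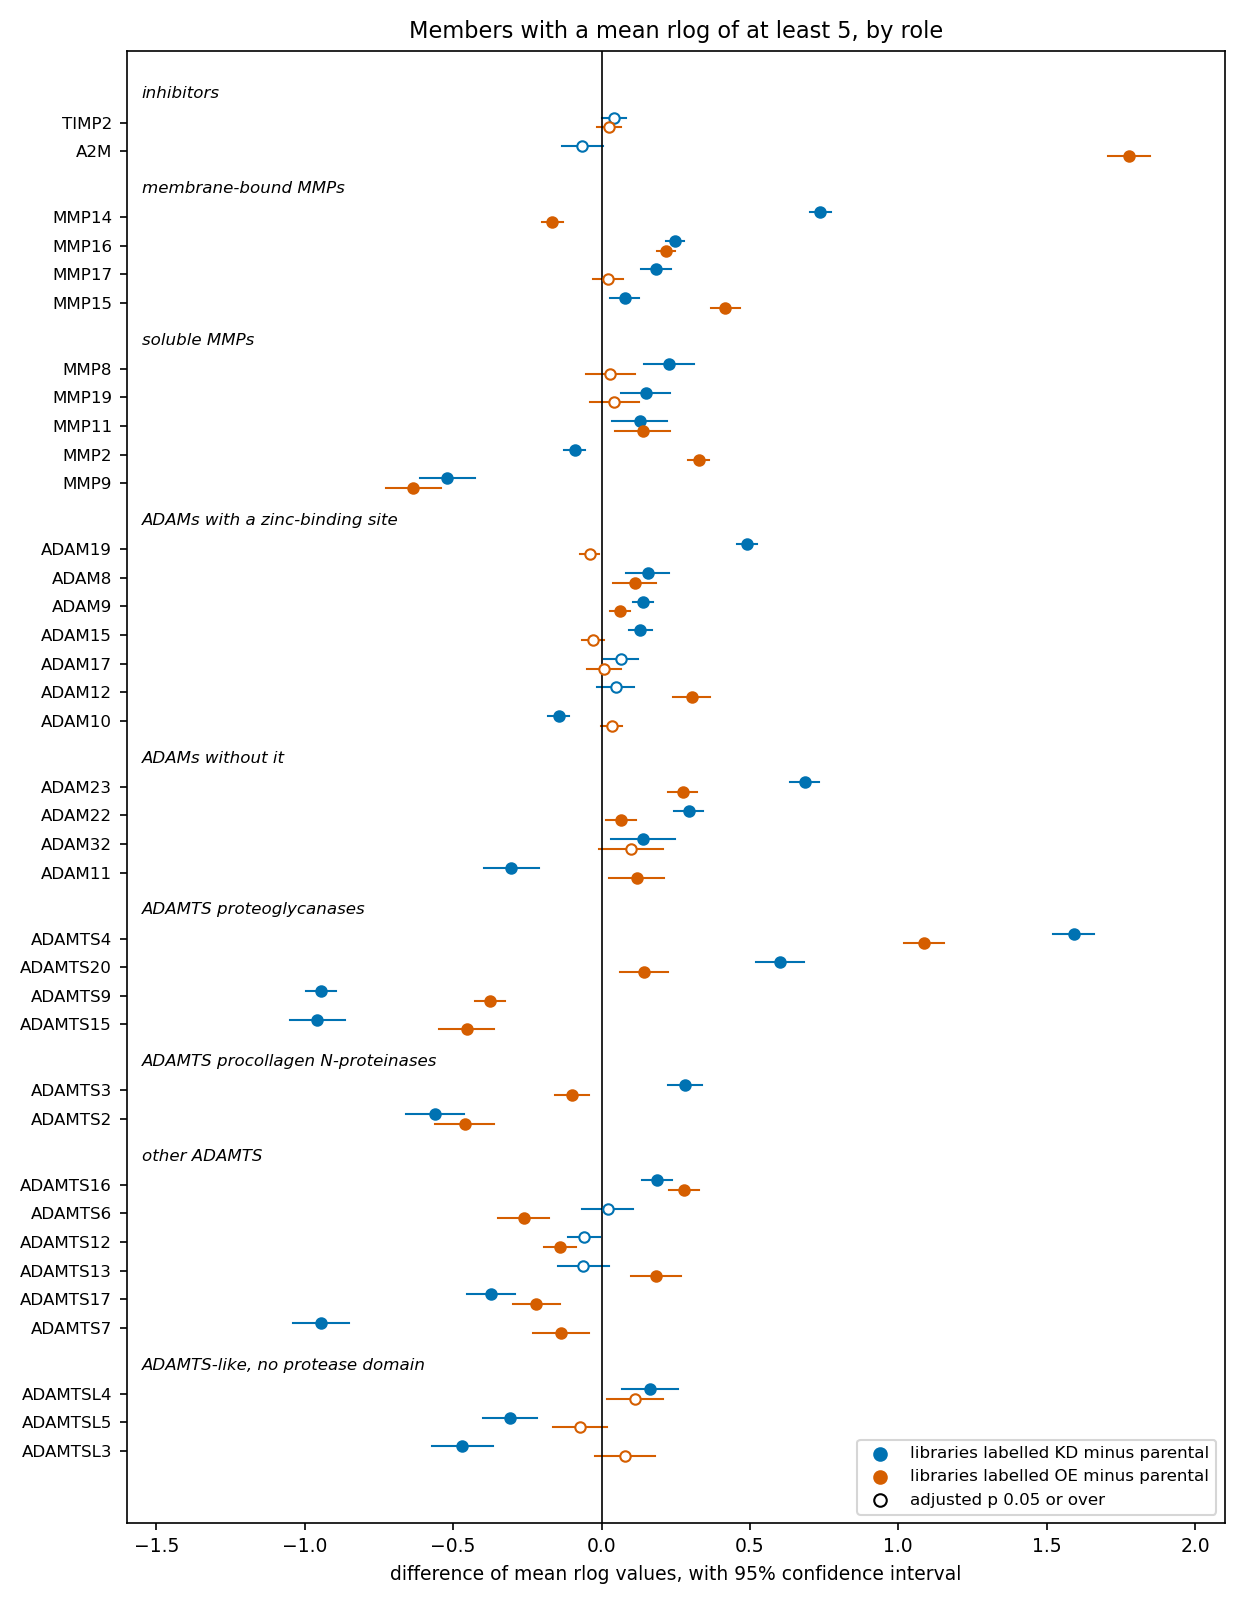
Difference of mean rlog values from the parental libraries (horizontal axis) for the 37 members whose mean rlog is 5 or more, in blue for libraries labelled KD and orange for libraries labelled OE, with the 95% confidence interval and open symbols at an adjusted p of 0.05 or over. For KD the ADAMTS proteoglycanases spread furthest, from −0.96 for ADAMTS15 to 1.59 for ADAMTS4, and A2M stands at 1.78 for OE alone.

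Of the 2 inhibitors, A2M rose in the libraries labelled OE, while the call of a small KD difference depended on the processing for both. A2M (ENSG00000175899, chr12:9067664-9116229, minus strand), the broad protease trap, read 8.76, 8.66 and 8.80 in the parental libraries, 8.73, 8.62 and 8.68 in those labelled KD and 10.52, 10.54 and 10.50 in those labelled OE. The libraries labelled OE all lay far above the rest, and those labelled KD overlapped the parental ones. Group means were 8.74 ± 0.0707, 8.68 ± 0.0506 and 10.52 ± 0.0168 (SD, n = 3 each). For OE the difference of rlog values was 1.78 (SE 0.034, limma adjusted p = 1.5e-27), and for KD it was −0.06 (limma adjusted p = 0.111). The KD difference of A2M was called lower without PAR replicate 2 (−0.104), without KD replicate 1 (−0.0891), after quantile normalization (−0.0898) and with its neighbours' median removed (−0.105, adjusted p = 0.00789). Not called, that KD difference was −0.0356 without PAR replicate 3 and −0.0387 without KD replicate 2. Between the libraries labelled OE and KD the difference was 1.84 (limma adjusted p = 7.0e-29). A2M shares 8.88% of its exonic bases with the antisense gene A2M-AS1.

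TIMP2 (ENSG00000035862, chr17:78852977-78925387, minus strand), the inhibitor that also bridges MMP14 and the MMP2 precursor, read 11.21, 11.19 and 11.19 in the parental libraries, 11.24, 11.25 and 11.23 in those labelled KD and 11.24, 11.23 and 11.20 in those labelled OE. The libraries labelled KD lay narrowly above the parental ones, and those labelled OE overlapped both. By rlog values it differed by 0.042 for KD (limma adjusted p = 0.0798), 0.025 for OE (limma adjusted p = 0.378, 95% interval −0.02 to 0.07) and −0.017 for OE against KD (limma adjusted p = 0.531). The KD difference of TIMP2 was called higher with only genes of a mean rlog of 5 or more tested (adjusted p = 0.0452), after median scaling (adjusted p = 0.0456), after quantile normalization (adjusted p = 0.0175) and with its neighbours' median removed (adjusted p = 0.0204). With other genes TIMP2 shares 9.52% of its exonic bases.

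**Figure D2:**
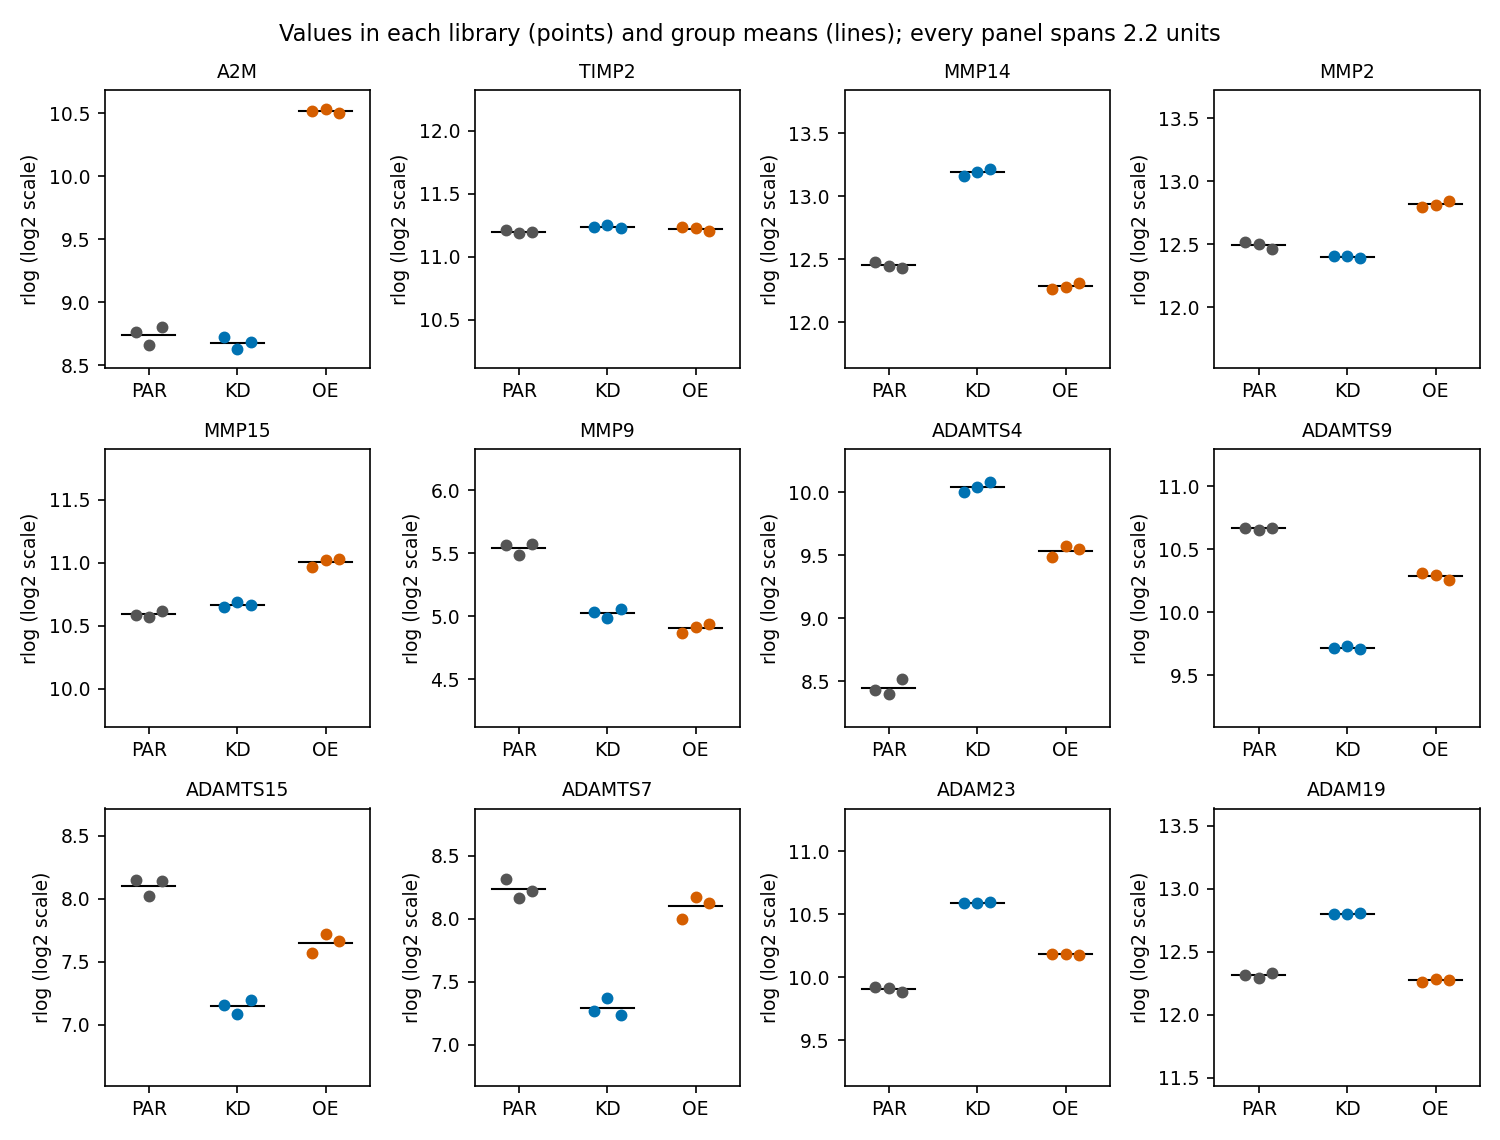
Rlog values (vertical axis, log2 scale, each panel of equal span) of 12 members in each library as points, with the group mean as a line, for parental (PAR) libraries and those labelled KD and OE. A2M lies at 10.50 to 10.54 in the libraries labelled OE and at 8.62 to 8.80 in the other 6, while TIMP2 stays between 11.19 and 11.25 in all 9.

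Of 5 membrane-bound MMPs, 4 rose and none fell in the libraries labelled KD, while 2 rose and 1 fell in those labelled OE. MMP14 (ENSG00000157227, chr14:22836560-22849041, plus strand), the collagenase of the cell surface and activator of MMP2, read 12.48, 12.45 and 12.43 in the parental libraries, 13.17, 13.19 and 13.22 in those labelled KD and 12.26, 12.28 and 12.32 in those labelled OE. The 3 groups did not overlap, KD being highest and OE lowest. Expressed in rlog values, the difference came to 0.74 for KD (SE 0.0174, limma adjusted p = 2.9e-26) and −0.17 for OE (limma adjusted p = 2.8e-09). MMP14 was thus called in opposite directions, and OE against KD differed by −0.90 (limma adjusted p = 1.9e-28).

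MMP16, a relative of MMP14 that also activates MMP2, read 13.78, 13.78 and 13.82 in the parental libraries, 14.06, 14.03 and 14.03 in those labelled KD and 14.03, 14.03 and 13.97 in those labelled OE. Both altered groups lay above the parental one and almost met each other. On the rlog scale the difference was 0.25 for KD (limma adjusted p = 1.3e-15) and 0.22 for OE (limma adjusted p = 1.7e-13). OE against KD it was −0.03 (limma adjusted p = 0.0939), and called without OE replicate 1 (−0.0399), after quantile normalization (−0.0572) and with its neighbours' median removed (−0.0453). MMP15, the third transmembrane MMP, read 10.58, 10.57 and 10.62, then 10.65, 10.69 and 10.66, then 10.97, 11.02 and 11.03 in the same order. Its libraries labelled OE stood apart from both other groups. The difference of rlog values was 0.42 for OE (limma adjusted p = 2.1e-15) and 0.08 for KD (limma adjusted p = 0.00653).

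Of 10 soluble MMPs, 4 rose and 3 fell for KD, and 2 rose and 2 fell for OE. MMP2, the gelatinase that MMP14 activates, read 12.52, 12.50 and 12.46 in the parental libraries, 12.41, 12.41 and 12.40 in those labelled KD and 12.80, 12.82 and 12.85 in those labelled OE. Its groups did not overlap and stood in the reverse order of those of MMP14. In rlog values the difference was −0.09 for KD (SE 0.0173, limma adjusted p = 3.8e-05), 0.33 for OE (limma adjusted p = 3.1e-16) and 0.42 for OE against KD (limma adjusted p = 1.5e-19). The median of MMP2's chromosomal neighbours was −0.0413 for KD. With it removed, the KD fall was smaller and still called, as given with the neighbours' values.

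MMP9, the other gelatinase, read 5.57, 5.49 and 5.58 in the parental libraries, 5.03, 4.99 and 5.06 in those labelled KD and 4.87, 4.92 and 4.94 in those labelled OE. Both altered groups lay below the parental one. By rlog values it differed by −0.52 for KD (SE 0.0459, limma adjusted p = 1.8e-11) and −0.63 for OE (limma adjusted p = 6.9e-13). The difference of OE from KD, −0.11 (limma adjusted p = 0.0399), was no longer called without KD replicate 1 (−0.111), KD replicate 3 (−0.0988), OE replicate 1 (−0.0953) or OE replicate 2 (−0.119), nor with the median of its chromosomal neighbours removed (−0.0437, adjusted p = 0.447). MMP9 shares 18.4% of its exonic bases with the antisense gene SLC12A5-AS1.

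Of 7 ADAMs with the zinc-binding site, 4 rose and 1 fell for KD, and 3 rose and none fell for OE. ADAM19, a sheddase of neuregulins, read 12.32, 12.29 and 12.33 in the parental libraries, 12.80, 12.80 and 12.81 in those labelled KD and 12.26, 12.28 and 12.27 in those labelled OE. The libraries labelled KD stood well above the rest. Expressed in rlog values, the difference came to 0.49 for KD (SE 0.0162, limma adjusted p = 2.1e-22), −0.04 for OE (limma adjusted p = 0.0514) and −0.53 for OE against KD (limma adjusted p = 4.0e-23). Its OE difference was called without PAR replicate 2 (adjusted p = 0.0324), with its neighbours' median removed (adjusted p = 0.0276) and with only genes of a mean rlog of 5 or more tested (adjusted p = 0.0285). ADAM9, another membrane sheddase, read 12.47, 12.51 and 12.48, then 12.64, 12.62 and 12.62, then 12.56, 12.55 and 12.54. Its 3 groups were apart, with OE between the others. On the rlog scale the difference was 0.14 for KD (limma adjusted p = 5.5e-09) and 0.06 for OE (limma adjusted p = 0.00252). With the median of its chromosomal neighbours removed, the OE difference of ADAM9 was 0.0137 and no longer called.

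Of 4 ADAMs that lack the zinc site and act as adhesion proteins or receptors, 3 rose and 1 fell for KD, and 3 rose and none fell for OE. ADAM23 (ENSG00000114948), a neuronal partner of the secreted LGI proteins, read 9.92, 9.92 and 9.88 in the parental libraries, 10.59 in all 3 of those labelled KD and 10.18 in all 3 of those labelled OE. Replicates of the altered groups were almost equal, and the groups were far apart. The difference of rlog values was 0.68 for KD (SE 0.0244, limma adjusted p = 1.6e-21) and 0.27 for OE (limma adjusted p = 8.0e-11). ADAM11, its relative in neurons, read 7.57, 7.55 and 7.51, then 7.21, 7.27 and 7.23, then 7.61, 7.59 and 7.78. KD lay below the parental libraries, and among those labelled OE replicate 3 was the high one. In rlog values the difference was −0.30 for KD (limma adjusted p = 8.0e-07) and 0.42 for OE against KD (limma adjusted p = 1.8e-09). The OE rise of ADAM11, 0.12 (limma adjusted p = 0.0411), was not called without OE replicate 3 (0.0579) or without PAR replicate 1 (0.131), 2 (0.121) or 3 (0.105). It was also not called after quantile normalization (0.0888), without the variance trend (adjusted p = 0.072) or with only the 6 libraries compared (adjusted p = 0.0561).

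The ADAMTS proteoglycanases, which cut aggrecan and versican, spread furthest for KD. Of 6, 3 rose and 3 fell for KD, and 2 rose and 2 fell for OE. ADAMTS4 (ENSG00000158859), an aggrecanase, read 8.43, 8.40 and 8.52 in the parental libraries, 9.999, 10.04 and 10.08 in those labelled KD and 9.49, 9.57 and 9.55 in those labelled OE. Both altered groups lay above every parental library, with KD the higher. Group means were 8.45 ± 0.0608, 10.04 ± 0.0409 and 9.54 ± 0.0455 (SD, n = 3 each). By rlog values it differed by 1.59 for KD (SE 0.0336, limma adjusted p = 1.6e-27), 1.09 for OE (limma adjusted p = 3.9e-22) and −0.50 for OE against KD (limma adjusted p = 2.8e-14). ADAMTS20, a versican-cutting enzyme, read 7.91, 7.97 and 7.95, then 8.54, 8.54 and 8.56, then 8.01, 8.17 and 8.08. It was highest in the libraries labelled KD. Expressed in rlog values, the difference came to 0.60 for KD (limma adjusted p = 1.2e-14) and 0.14 for OE (limma adjusted p = 0.00436), the latter not called without OE replicate 2 (0.102, adjusted p = 0.0635).

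The other well-expressed proteoglycanases fell. ADAMTS9, a widely expressed versican-cutting enzyme, read 10.67, 10.65 and 10.67 in the parental libraries, 9.72, 9.73 and 9.71 in those labelled KD and 10.31, 10.30 and 10.26 in those labelled OE. The groups did not overlap, and KD was lowest. On the rlog scale the difference was −0.95 for KD (SE 0.0248, limma adjusted p = 4.5e-25) and −0.38 for OE (limma adjusted p = 7.0e-14). ADAMTS15, which also cuts versican, read 8.15, 8.02 and 8.14, then 7.16, 7.09 and 7.20, then 7.57, 7.72 and 7.67. Its groups stood in the order of those of ADAMTS9. The difference of rlog values was −0.96 for KD (SE 0.0454, limma adjusted p = 2.9e-18) and −0.45 for OE (limma adjusted p = 9.5e-10). ADAMTS1, a member of the same clade that was near the bottom of the scale, read 1.43 in all 3 parental libraries, 1.48, 1.46 and 1.58 in those labelled KD and 1.41 in all 3 of those labelled OE. KD replicate 3 was the high one. ADAMTS1 was chosen after its values were seen. Its KD difference of 0.077 (limma adjusted p = 0.00301) was not called without KD replicate 3 (0.0407) or with the neighbours' median removed (0.0422), and its difference of OE from KD was −0.096 (−0.0592 without KD replicate 3, still called).

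The procollagen N-proteinases trim fibrillar collagens before fibrils form, and of these 3 genes 1 rose and 1 fell for KD, while 2 fell for OE. ADAMTS2 read 6.88, 6.99 and 7.03 in the parental libraries, 6.41, 6.35 and 6.45 in those labelled KD and 6.56, 6.49 and 6.46 in those labelled OE. Both altered groups lay below the parental one. In rlog values the difference was −0.56 for KD (limma adjusted p = 7.9e-12), −0.46 for OE (limma adjusted p = 2.1e-09) and 0.10 for OE against KD (limma adjusted p = 0.0899). ADAMTS3, which also activates the growth factor VEGFC and was chosen after its values were seen, read 9.51, 9.53 and 9.51, then 9.81, 9.80 and 9.79, then 9.42, 9.44 and 9.39. Its KD libraries were highest and its OE libraries lowest. By rlog values it differed by 0.28 for KD (limma adjusted p = 2.5e-10) and −0.10 for OE (limma adjusted p = 0.005), and shifts of like size in its chromosomal neighbours are given with the neighbours' values.

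Among 7 other ADAMTS genes, 1 rose and 3 fell for KD, and 3 rose and 4 fell for OE. ADAMTS7, which cuts the cartilage matrix protein COMP, read 8.32, 8.17 and 8.22 in the parental libraries, 7.27, 7.37 and 7.23 in those labelled KD and 8.001, 8.17 and 8.13 in those labelled OE. The libraries labelled KD were far below, and those labelled OE overlapped the parental ones. Expressed in rlog values, the difference came to −0.95 for KD (SE 0.0465, limma adjusted p = 7.9e-18) and 0.81 for OE against KD (limma adjusted p = 6.5e-16). The OE fall of ADAMTS7, −0.14 (limma adjusted p = 0.0215), was not called without PAR replicate 1 (−0.0949), without OE replicate 1 (−0.0863) or without the variance trend (adjusted p = 0.0802). ADAMTS13, the protease of von Willebrand factor, chosen after its values were seen, read 7.89, 7.79 and 7.92, then 7.77, 7.83 and 7.82, then 8.04, 7.997 and 8.11. The libraries labelled OE were highest. On the rlog scale the difference was 0.18 for OE (limma adjusted p = 6.9e-04) and −0.06 for KD (limma adjusted p = 0.23). With its neighbours' median removed, the KD difference turned to 0.264 and was called, as given with the neighbours' values.

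Of 5 ADAMTS-like proteins, matrix glycoproteins without a protease domain, 1 rose and 3 fell for KD, and none was called for OE, where the differences of rlog values ran from −0.0727 to 0.113. ADAMTSL3 read 6.21, 6.05 and 6.14 in the parental libraries, 5.70, 5.61 and 5.68 in those labelled KD and 6.15, 6.28 and 6.20 in those labelled OE. KD lay below both other groups, which overlapped. The difference of rlog values was −0.47 for KD (limma adjusted p = 1.0e-09), 0.08 for OE (limma adjusted p = 0.241) and 0.55 for OE against KD (limma adjusted p = 4.5e-11).

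The 12 members with a mean rlog under 5 had small differences, from −0.162 to 0.173 for KD and from −0.111 to 0.228 for OE. For KD 2 of them rose and 4 fell, and for OE 1 rose and 1 fell. Of all 22290 genes, 11980 (53.7%) were called for KD and 7764 (34.8%) for OE. Of the 14000 with a mean rlog of 5 or more, 10042 (71.7%) and 7039 (50.3%) were called. The share among genes under 5 was therefore lower than that of all genes. Whether the low members differ from other low genes was not tested. ADAMTS10, an enzyme of fibrillin microfibrils, read 3.56, 3.48 and 3.52 in the parental libraries, 3.43, 3.44 and 3.40 in those labelled KD and 3.83, 3.75 and 3.67 in those labelled OE. Its groups did not overlap. In rlog values the difference was 0.23 for OE (limma adjusted p = 1.7e-05) and −0.10 for KD (limma adjusted p = 0.0316), the latter not called without PAR replicate 1 (−0.0789), PAR replicate 3 (−0.0999), KD replicate 1 (−0.104) or KD replicate 3 (−0.0874), nor with the neighbours' median removed (−0.0879).

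The remaining low members that moved furthest were collagenase 3 (MMP13), stromelysin 1 (MMP3) and ADAMTSL1. MMP13 differed by 0.17 for KD (limma adjusted p = 2.0e-04), a difference of rlog values. MMP3 differed by −0.16 for KD (limma adjusted p = 3.1e-04) and by −0.11 for OE (limma adjusted p = 0.0166), the OE call ending without PAR replicate 2 (−0.0915) or OE replicate 3 (−0.0849). ADAMTSL1 differed by −0.13 for KD, a call that ended without KD replicate 2 (−0.107), and by −0.248 with its neighbours' median removed. Its difference of OE from KD was 0.15, and 0.273 with that median removed.

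By class, 8 of 15 MMPs rose and 3 fell for KD, as did 7 and 2 of 11 ADAMs and 5 and 7 of 16 ADAMTS proteases. For OE the numbers were 4 higher and 3 lower for MMPs, 6 and 0 for ADAMs and 5 and 8 for ADAMTS proteases. Over the 42 proteases, 20 rose and 12 fell for KD with a median difference of rlog values of 0.0564. For OE 15 rose and 11 fell with a median of 0.0081. Over all genes the median difference was −0.0005 for KD and 0.0004 for OE. Of all genes, 26.9% rose and 26.9% fell for KD, and 16.9% and 18.0% for OE. At a mean rlog of 5 or more it was 35.6% and 36.2% for KD, and 24.0% and 26.3% for OE. The classes were not tested against these shares.

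The promoters of 29 members were in the RefSeq table, on build GRCh38.p14, and the 250 bases before the start were searched. A2M, TIMP2, ADAMTS4, ADAMTS9, ADAMTS15, MMP2 and MMP9 were among the 20 without an entry. The content of G and C of the 29 promoters ran from 36.4% to 83.6% with a median of 73.6%. The letters TGANTCA, a loose form of the AP-1 motif, searched on both strands because AP-1 is a textbook regulator of MMP genes, were in 2 of 29 (6.9%), those of ADAMTS12 and MMP20, beside 1801 of 27305 promoters (6.6%) and beside 4.44% of the 11586 protein-coding genes of the table with an entry. Both matches read TGAATCA, without the C or G that the textbook AP-1 site has in the middle. The hypoxia core ACGTG, on both strands, was in 9 of 29 (31.0%) beside 5101 of 27305 (18.7%) and beside 22.3% of those protein-coding genes. A match is a description of letters, not a bound site.

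The sequences shown are those of the called members with an entry that had the 2 highest and the 2 lowest KD differences, MMP14 and ADAM23 against ADAMTS7 and ADAMTS2, so that promoters of genes that rose and fell can be read side by side. They lie at chr14:22836335-22836584 on the plus strand (MMP14), chr2:206443282-206443531 on the plus strand (ADAM23), chr15:78811465-78811714 on the minus strand (ADAMTS7) and chr5:179345462-179345711 on the minus strand (ADAMTS2). Each is written 5′ to 3′ in the gene's direction, and capitals mark the hypoxia core on either strand, which only MMP14 of these 4 holds.
MMP14: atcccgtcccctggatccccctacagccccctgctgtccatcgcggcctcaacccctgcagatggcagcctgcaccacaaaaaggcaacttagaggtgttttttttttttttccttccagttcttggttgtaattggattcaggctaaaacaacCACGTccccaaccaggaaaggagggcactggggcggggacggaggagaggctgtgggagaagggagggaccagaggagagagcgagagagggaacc
ADAM23: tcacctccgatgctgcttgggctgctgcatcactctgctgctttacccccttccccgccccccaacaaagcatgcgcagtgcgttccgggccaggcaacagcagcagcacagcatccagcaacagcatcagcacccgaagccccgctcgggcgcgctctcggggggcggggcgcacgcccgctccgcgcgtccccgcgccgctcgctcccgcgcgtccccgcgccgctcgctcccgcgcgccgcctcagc
ADAMTS7: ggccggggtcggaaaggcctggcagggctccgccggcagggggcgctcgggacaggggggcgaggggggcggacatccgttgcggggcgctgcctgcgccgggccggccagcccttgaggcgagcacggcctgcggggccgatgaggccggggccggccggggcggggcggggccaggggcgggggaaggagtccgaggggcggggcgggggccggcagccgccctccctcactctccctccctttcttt
ADAMTS2: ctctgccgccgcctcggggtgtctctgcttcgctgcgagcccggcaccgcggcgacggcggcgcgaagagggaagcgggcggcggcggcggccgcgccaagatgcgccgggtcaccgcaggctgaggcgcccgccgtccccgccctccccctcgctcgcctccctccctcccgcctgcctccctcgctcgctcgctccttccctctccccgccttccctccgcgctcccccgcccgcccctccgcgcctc

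MMP14's promoter was 56.8% G and C with 7 CpG dinucleotides, and its last 25 bases lie inside the annotated gene. That of ADAM23 was 73.6% with 33 CpG dinucleotides. The ADAMTS7 promoter was 80.8% with 29 and lies inside the gene MORF4L1 on the opposite strand. For ADAMTS2 it was 80% with 40 CpG dinucleotides.

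Levels were compared between genes per kilobase of exon, as mean rlog minus log2 of exonic length in kb, among the 37 members with a mean rlog of at least 5. In parental libraries the highest levels per kb were those of MMP2 (10.26), MMP14 (10.245) and MMP16 (10.20), which lie close together. In libraries labelled KD the level per kb of MMP14 was 10.98, that of MMP16 10.44 and that of MMP2 10.17. In libraries labelled OE that of MMP2 came first at 10.59, with MMP16 at 10.41 and MMP14 at 10.08. The level per kb of TIMP2 was 8.56, 8.60 and 8.59 in the 3 groups, ranks 7, 7 and 8. The level per kb of A2M was 6.08, 6.02 and 7.86, ranks 21, 22 and 11. The level per kb of ADAMTS4 was 5.08, 6.67 and 6.17, ranks 27, 17 and 20, while that of ADAMTS9 was 7.25, 6.30 and 6.87, ranks 12, 19 and 15.

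**Figure D3:**
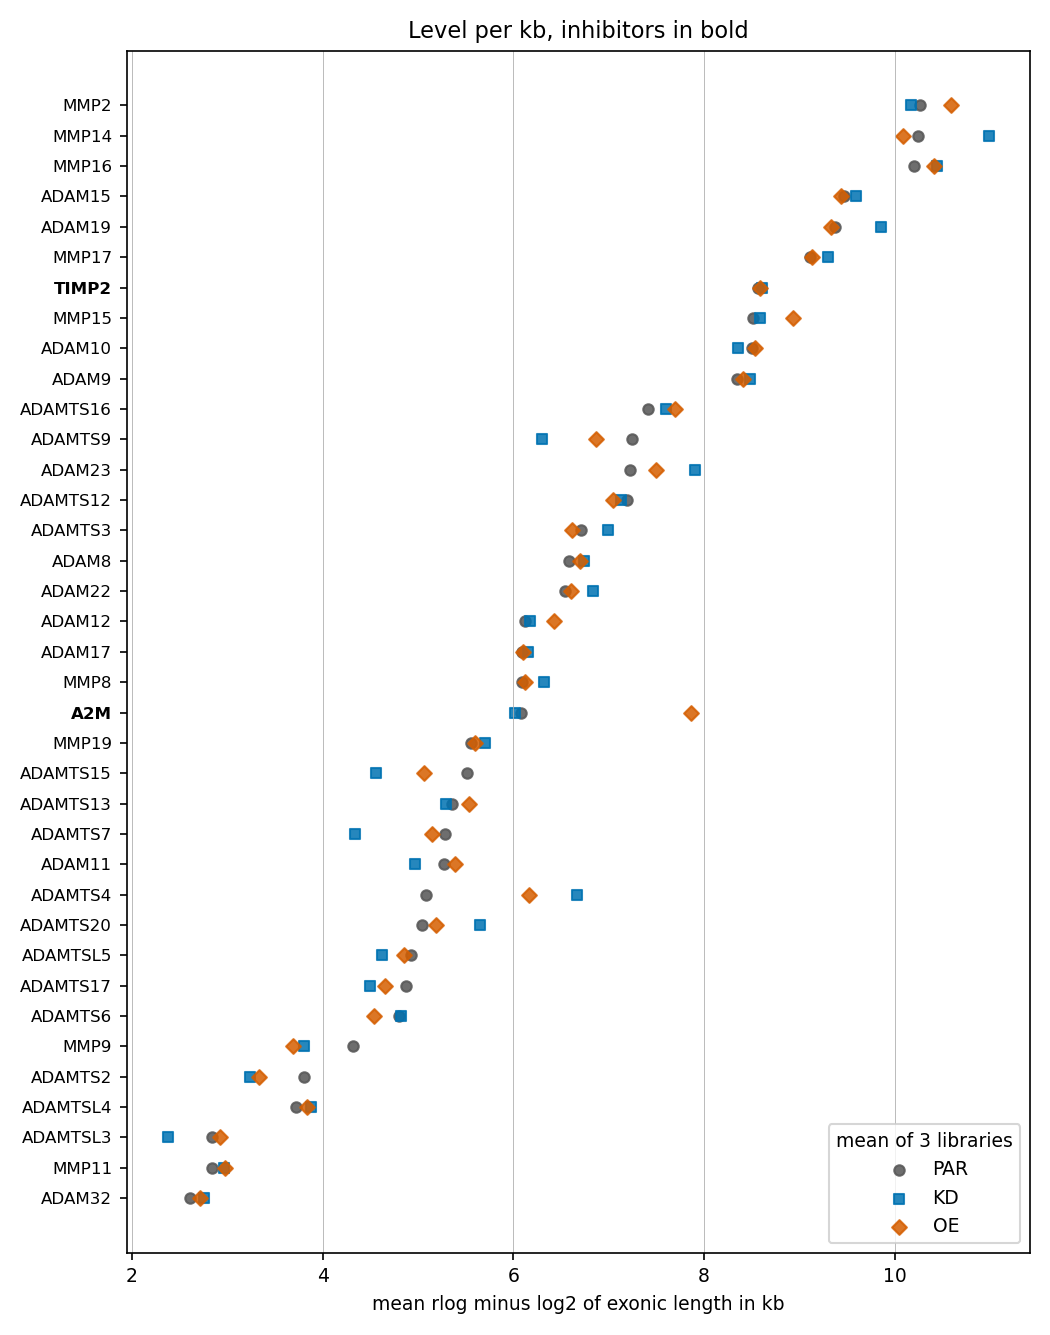
Mean rlog minus log2 of exonic length in kb (horizontal axis) of the 37 members with a mean rlog of at least 5, as the mean of 3 libraries for parental (circles), KD-labelled (squares) and OE-labelled (diamonds) cells, inhibitors in bold. A2M moves from 6.08 to 7.86 per kb in the libraries labelled OE, while TIMP2 lies between 8.56 and 8.60 in all 3 groups.

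Inhibitors were set against proteases in each library as the log2 of the summed level of A2M and TIMP2 minus that of the proteases with a mean rlog of 5 or more, a description without a test, in which only the change between groups is read. It was −4.48, −4.51 and −4.50 in the parental libraries, −4.68, −4.68 and −4.69 in those labelled KD and −4.11, −4.12 and −4.13 in those labelled OE. The groups did not overlap, KD being lowest and OE highest. TIMP1, TIMP3 and TIMP4, which had no row, are absent from the inhibitor sum. The ADAMs without the zinc site are in the protease sum. For the summed inhibitors the group means were 11.44, 11.46 and 11.91, and for the summed proteases 15.93, 16.15 and 16.03. By these means the KD group differed mainly in the protease sum and the OE group mainly in the inhibitor sum, where A2M was the inhibitor called. Under the same limit on level, summed MMPs averaged 14.87, 15.15 and 15.04, summed ADAMs 14.66, 14.85 and 14.70, and summed ADAMTS proteases 12.73, 12.71 and 12.70.

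Within the trio that activates MMP2, the difference of the rlog values of MMP14 and TIMP2 was 1.27, 1.26 and 1.24 in the parental libraries, 1.93, 1.94 and 1.99 in those labelled KD and 1.03, 1.06 and 1.11 in those labelled OE. For MMP2 and TIMP2 it was 1.31, 1.31 and 1.27, then 1.17, 1.16 and 1.16, then 1.57, 1.59 and 1.65. Relative to TIMP2, the activator was highest where its substrate was lowest. RNA does not measure enzyme activity or secreted protein.

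**Figure D4:**
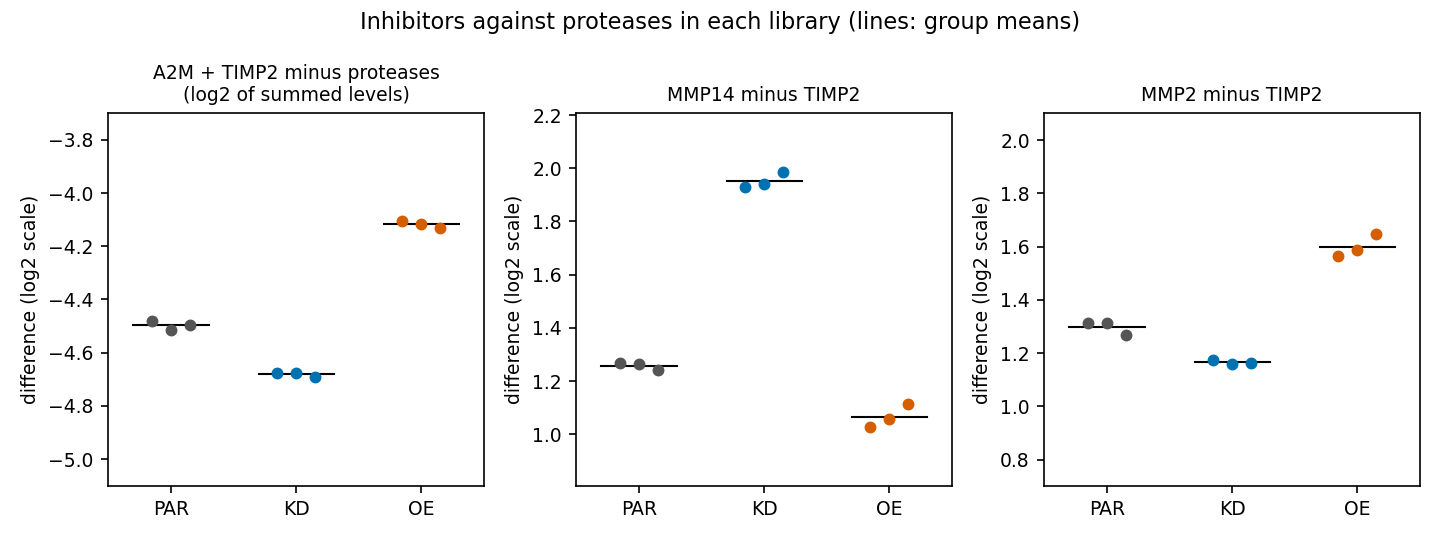
Differences on the log2 scale (vertical axis) in each library (points) with group means (lines): summed A2M and TIMP2 minus summed proteases with a mean rlog of 5 or more, MMP14 minus TIMP2, and MMP2 minus TIMP2. The first averages −4.50 in parental libraries, −4.68 in those labelled KD and −4.12 in those labelled OE, and no panel has overlapping groups.

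Of 21 regulators of these proteases, such as convertases, receptors and membrane anchors, 5 rose and 9 fell for KD, and 7 rose and 5 fell for OE. Beside this and the other lists, 26.9% of all genes rose and 26.9% fell for KD, and 16.9% rose and 18.0% fell for OE. LRP1, the receptor that clears A2M with its bound protease, read 11.68, 11.63 and 11.70 in the parental libraries, 12.20, 12.20 and 12.21 in those labelled KD and 12.02, 12.09 and 12.09 in those labelled OE. Both altered groups lay above the parental one. By rlog values it differed by 0.54 for KD (limma adjusted p = 1.1e-20) and 0.40 for OE (limma adjusted p = 1.7e-16). RECK, a membrane-anchored inhibitor of MMPs, read 8.55, 8.50 and 8.45, then 8.14, 8.06 and 8.21, then 8.61, 8.70 and 8.68. It was lowest in libraries labelled KD and highest in those labelled OE. Expressed in rlog values, the difference came to −0.36 for KD (limma adjusted p = 1.9e-09), 0.16 for OE (limma adjusted p = 0.00148) and 0.53 for OE against KD (limma adjusted p = 6.2e-13). The proteoglycan SPOCK3 differed by 0.75 for KD and 0.21 for OE, and its relative SPOCK1 by −0.38 and −0.31. The proprotein convertase PCSK5 differed by −0.68 for KD and, not called, by −0.07 for OE. PCSK5's KD difference was −0.425 with its neighbours' median removed, and its OE difference was called without PAR replicate 2 (−0.0937). PCSK7, another convertase, differed by −0.13 and −0.23.

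Of 6 genes of the plasminogen system with a row, of 8 listed, all 6 fell for KD and 5 fell for OE. Among all genes with a mean rlog of 5 or more, 36.2% fell for KD and 26.3% for OE, and the list was not tested against them. PLAT, the tissue plasminogen activator, read 14.39, 14.39 and 14.38 in the parental libraries, 13.72, 13.72 and 13.74 in those labelled KD and 14.04, 14.03 and 14.07 in those labelled OE. The groups were far apart. On the rlog scale the difference was −0.66 for KD (limma adjusted p = 1.2e-28) and −0.34 for OE (limma adjusted p = 4.0e-20). The urokinase receptor PLAUR differed by −0.37 and −0.29, and the plasmin inhibitor SERPINF2 by −0.24 and, not called, −0.05. SERPINE2, a protease inhibitor of the same family, read 17.68, 17.70 and 17.67, then 17.66, 17.64 and 17.64, then 17.51, 17.50 and 17.49. It differed by −0.04 for KD and −0.19 for OE. As the highest gene of every library it is set equal by quantile normalization, and its KD call ended without the variance trend (adjusted p = 0.0839).

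Of 28 substrates, matrix proteins and shed surface proteins, 12 rose and 8 fell for KD, and 4 rose and 13 fell for OE. Reelin (RELN), a matrix signal of neurons, read 5.45, 5.60 and 5.59 in the parental libraries, 8.01, 7.98 and 8.01 in those labelled KD and 5.47, 5.48 and 5.57 in those labelled OE. Only the libraries labelled KD stood apart, with a difference of rlog values of 2.45 for KD and, not called, −0.04 for OE. Aggrecan (ACAN), the cartilage proteoglycan cut by ADAMTS4 and chosen after its values were seen, read 13.11, 13.09 and 13.11, then 13.54, 13.56 and 13.53, then 12.97, 12.98 and 13.01. The difference of rlog values was 0.45 for KD (limma adjusted p = 2.9e-22) and −0.11 for OE (limma adjusted p = 2.3e-07). Versican (VCAN), cut by the same clade, differed by 0.68 and 0.64. Fibronectin (FN1) differed by −0.96 for KD and 0.55 for OE, and the adhesion molecule NCAM1 by 1.39 and −0.45. The shed growth factors AREG and HBEGF differed by −1.57 and −1.17, and by −0.62 and −0.59. AREG's difference of OE from KD, 0.393, was 0.803 with its neighbours' median removed.

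Of 7 AP-1 subunits, transcription factors known to drive MMP genes, 5 had a row, of which 3 rose and 2 fell for KD, and 3 rose and 1 fell for OE. The difference of rlog values of FOS was 1.13 for KD and 0.46 for OE. FOSL1 differed by −0.72 and −0.52, and JUN by −0.12 and, not called, 0.0043. FOSL2 differed by 0.16 for OE and by 0.07 for KD, the KD call ending without PAR replicate 1 (0.0631), PAR replicate 3 (0.0628) or KD replicate 3 (0.0618), or with the neighbours' median removed (0.0497).

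Members were also read against the other genes of the same 20-Mb block of their chromosome, 38 to 377 neighbours each. The median difference of the neighbours ran from −0.325 to 0.290 for KD and from −0.116 to 0.0485 for OE. ADAMTS3, on chromosome 4, had 51 neighbours with medians of 0.290 for KD, −0.116 for OE and −0.406 for OE against KD, close to its own 0.28, −0.10 and −0.38. With these removed its differences were −0.0100, 0.0165 and 0.0265, none called. ADAMTS13, on chromosome 9, had 208 neighbours with medians of −0.325, −0.091 and 0.235. Its KD difference of −0.06 became 0.264 with the median removed (limma adjusted p = 1.3e-06), and its difference of OE from KD, 0.24, became 0.0096 and was not called. MMP15's KD difference of 0.08 became 0.119, MMP2's of −0.09 became −0.0495, and both were still called. What the neighbours' shift contributes to these values was not tested.

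With the neighbours' median removed, 32 of 36 member calls held for KD, 24 of 27 for OE and 28 of 33 for OE against KD. Then 22 members were called higher and 17 lower for KD, 15 and 11 for OE, and 17 and 15 for OE against KD. Calls were thus gained in each comparison too. The calls lost for KD were those of ADAMTS3, ADAMTS8, ADAMTS1 and ADAMTS10, for OE those of ADAMTS3, ADAM9 and ADAM8, and for OE against KD those of ADAMTS3, ADAMTS12, ADAMTS13, MMP19 and MMP9. Of these, ADAMTS8, ADAM8, ADAMTS12 and MMP19 are named after their values were seen. The members with the widest differences, A2M, ADAMTS4, MMP14, ADAMTS9, ADAMTS15 and ADAMTS7, lay in blocks whose median differences were within 0.1 of 0.

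**Figure D5:**
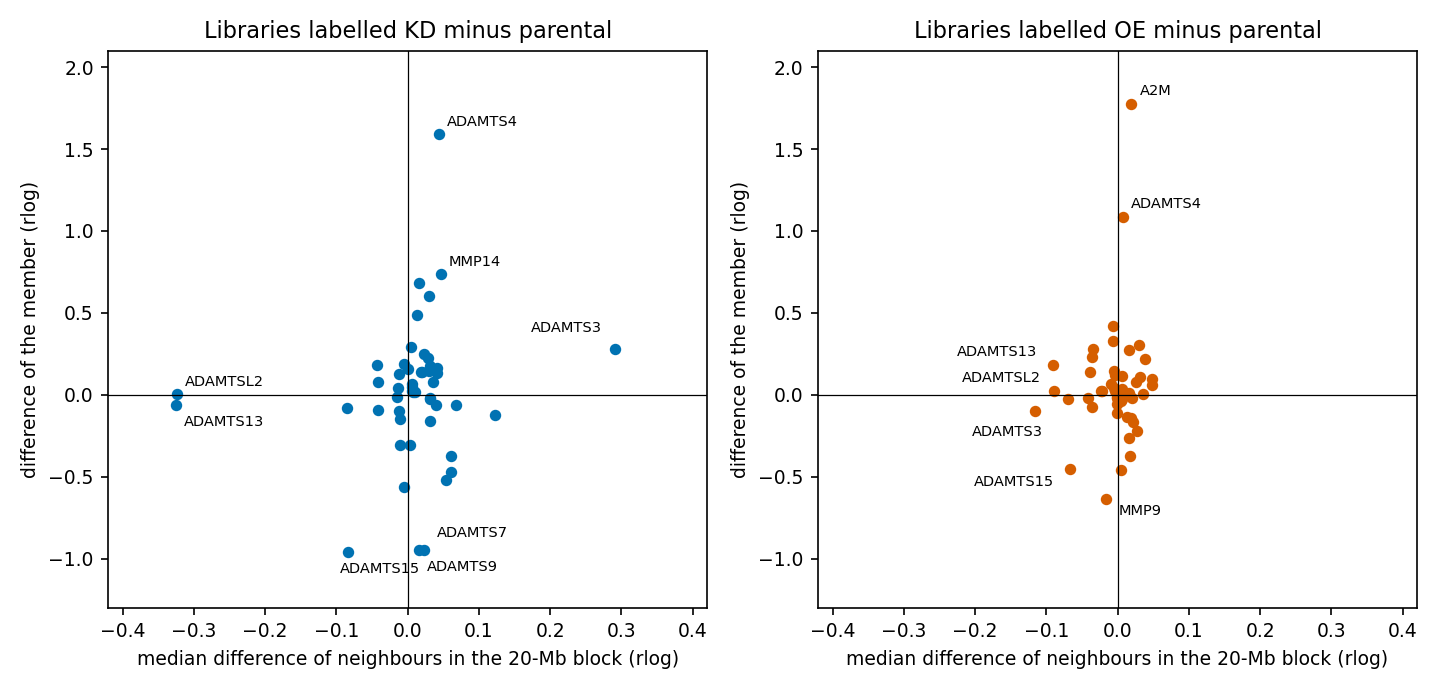
Difference of each of the 49 members from the parental libraries (vertical axis, rlog) against the median difference of the other genes in its 20-Mb block (horizontal axis, rlog), for libraries labelled KD (left) and OE (right). ADAMTS3 lies at a neighbour median of 0.290 for KD with its own difference at 0.28, while ADAMTS4 at 1.59 has neighbours near 0.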

How the data were processed

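The deposited values are rlog values on a log2 scale, made by the authors with DESeq2 from featureCounts counts of reads trimmed with cutadapt and aligned to GRCh38 with HISAT2, after genes with a total count under 10 were removed; annotation, strand and versions are not given. Symbols, positions and exonic lengths came from GENCODE release 44 (22195 of 22290 identifiers matched). All 9 libraries were fitted together in limma 3.58.1 (R 4.3.3), a moderated linear model with a variance trend and Benjamini-Hochberg adjustment over 22290 genes. Tables and figures used Python 3.11.15 with pandas 2.3.3 and matplotlib 3.10.9.

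Members named were the inhibitors, the 8 largest called differences per comparison and the 5 highest levels among those with a mean rlog of at least 5, those of opposite sign over 0.1, and the 3 largest low ones, with the 3 largest of each list of other genes: 44 genes, 22 of them members. Not every other gene so chosen is reported here. Members and lists were chosen with earlier results of these data known. Promoters are from RefSeq, GRCh38.p14.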

Additional observations from a re-analysis of the deposited data

Results flagged for a closer look

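The following members differed between the effects of the OE and KD labels in the direct limma test of OE against KD, after adjustment over all genes, with every library of the 2 groups on opposite sides of the shared parental libraries. MMP14 differed by −0.903016 (adjusted p = 1.9e-28). ADAM19 differed by −0.530107 (adjusted p = 4.0e-23). MMP2 differed by 0.417862 (adjusted p = 1.5e-19), and ADAM11 by 0.423694 (adjusted p = 1.8e-09). ADAMTS3 differed by −0.379993 (adjusted p = 3.0e-13), beside a median of −0.406 over its chromosomal neighbours. The low genes ADAMTS10 and ADAMTS1 differed by 0.32822 (adjusted p = 1.6e-08) and −0.095551 (adjusted p = 4.1e-04). ADAMTS3 and ADAMTS1 were chosen after their values were seen.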

How the results depend on the processing

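The alternatives were run for the genes of the naming rule and for ADAMTS1, ADAMTS3, ADAMTS13 and ACAN. They were not run for marker genes or for members named only with their neighbours. The alternative that tested only genes above the limit on mean rlog leaves out the low members MMP13, MMP3, ADAMTSL1, ADAMTS10 and ADAMTS1. Of 121 called values of the genes run, TRAP1 aside, 104 kept call and direction under every alternative tried for them. The call was lost under at least 1 alternative for 17, and 3, all of ADAMTS3, changed direction. Among the members run, 49 of 62 called values were kept. Where no cause is given it was not tested.

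With an absolute difference over 0.5 also required, members called were 4 higher and 5 lower for KD, 2 and 1 for OE, and 5 and 3 for OE against KD, a stricter rule by construction. Leaving out 1 library at a time, members called higher numbered 19 to 22 and lower 13 to 18 for KD, 14 to 17 and 10 to 11 for OE, and 16 to 16 and 15 to 17 for OE against KD. TRAP1's KD difference ran from 0.125 to 0.146 and its OE difference from −0.0118, without OE replicate 3, to 0.0417. With the median of its 20-Mb block removed, TRAP1's OE difference was 0.0606 (adjusted p = 0.0492). That removal gave ADAMTS3 −0.0100 for KD, 0.0165 for OE and 0.0265 for OE against KD, and ADAMTS13 0.264 for KD.

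Differences that were not called changed sign when 1 library was left out. For ADAMTSL1 the OE difference ran from −0.00677, without OE replicate 2, to 0.0437. For JUN it ran from −0.00929, without OE replicate 3, to 0.0211, and was −0.00903 without PAR replicate 2. OE against KD, VCAN ran from −0.0903 to 0.0204, without OE replicate 3, and HBEGF from −0.00329, without KD replicate 1, to 0.0703.

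With replicate number as a block, the counts were 21 and 15 for KD, 16 and 11 for OE and 16 and 17 for OE against KD, and TRAP1 differed by 0.139 (SE 0.0242) for KD and 0.018 for OE. Deviations of libraries with the same number correlated at −0.071 to 0.14, beside −0.139 to 0.075 for different numbers. Between KD and OE, same-number values were 0.116, 0.023 and 0.14, and different-number values ran from −0.139 to 0.026. Same-number values that involved a parental library ran from −0.071 to 0.013. Whether the numbers mark pairs was not tested. Rescaling to equal medians moved the median of all genes by under 0.1. Depth limits cannot be read from rlog values.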
